A study of Mus musculus with 9 samples.

Results

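The 10 genes described here encode the route by which hepatocytes build fatty acids from acetyl units: Acly, Acss2, Me1, Acaca, Acacb, Fasn, Thrsp, Elovl6, Elovl5 and Scd1. They were listed by their known roles in this route, with earlier results of these data known, and are 10 of the 26388 features listed in the files. Their unique molecular identifiers (UMIs, tags that mark single captured transcripts) were summed in each liver over cell barcodes with at least 200 genes and scaled to 1000000 UMIs of that liver, which is abbreviated CPM. The livers came from 9 male C57BL/6 mice aged 8 weeks, each profiled as 1 Drop-seq library, a droplet method that tags the 3' ends of transcripts of single cells. Mice 1, 4 and 7 had received PBS, mice 2, 5 and 8 AAVrh.10Null and mice 3, 6 and 9 AAVrh.10mCherry, all by the intravenous route. AAVrh.10 is an adeno-associated virus serotype that enters hepatocytes. The mCherry vector carries a red fluorescent reporter, and what the Null vector carries is not stated in the labels. The vector dose, the interval to collection, the hour of collection and the feeding state are not given in the sources used here. Each label names a separate mouse, so the p-values of the whole-liver comparisons measure the spread between mice. In comparisons of barcode sets within livers, the p-values measure how the difference between the sets varied from mouse to mouse.

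De novo fatty acid synthesis turns surplus carbohydrate into lipid. Citrate leaving the mitochondrion is cleaved to acetyl-CoA, carboxylation gives malonyl-CoA, fatty acid synthase joins these units with NADPH as reductant, and elongases and a desaturase remodel the palmitate that results. In liver most of these genes are driven by SREBP-1c and ChREBP, encoded by Srebf1 and Mlxipl, in response to insulin and sugar, and their transcripts also cycle with feeding and the circadian clock.

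The promoter windows of 4 members are shown first, because Fasn, Acaca and Elovl6 had the same 3 livers at the top while Elovl5 did not. Each window holds 250 bases before and 50 from a start site in RefSeq, on the GRCm38.p6 build and read 5' to 3' on the gene's strand. Capitals mark matches to CCAAT (the CCAAT box), GGGCGG (the GC box), CACGTG (an E-box) or TCACNCCAC (a sterol regulatory element), each searched on both strands, so ATTGG marks a CCAAT box on the other strand. Fasn lies at chr11:120805958-120825166 and its window at chr11:120824498-120824797 on the minus strand. Acaca lies at chr11:84129635-84401651, and its window at chr11:84195188-84195487 on the plus strand. Both windows are set around a start site inside the annotated gene, for Acaca at base 84195438, past the gene's first base at 84129635. Elovl6 lies at chr3:129532386-129638495 with its window at chr3:129532136-129532435, and Elovl5 at chr9:77917365-77984519 with its window at chr9:77917115-77917414, both on the plus strand.
Fasn: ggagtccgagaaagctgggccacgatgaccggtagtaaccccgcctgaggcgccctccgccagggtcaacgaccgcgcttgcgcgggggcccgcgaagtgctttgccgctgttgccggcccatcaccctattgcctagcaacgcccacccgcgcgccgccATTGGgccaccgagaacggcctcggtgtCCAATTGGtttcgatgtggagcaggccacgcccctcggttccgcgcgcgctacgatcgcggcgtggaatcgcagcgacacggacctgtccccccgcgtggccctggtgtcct
Acaca: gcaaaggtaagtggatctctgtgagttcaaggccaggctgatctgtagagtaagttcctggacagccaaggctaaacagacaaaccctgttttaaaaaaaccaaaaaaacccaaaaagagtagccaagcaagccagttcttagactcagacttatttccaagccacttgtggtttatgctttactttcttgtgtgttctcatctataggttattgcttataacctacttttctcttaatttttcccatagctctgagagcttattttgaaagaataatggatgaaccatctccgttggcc
Elovl6: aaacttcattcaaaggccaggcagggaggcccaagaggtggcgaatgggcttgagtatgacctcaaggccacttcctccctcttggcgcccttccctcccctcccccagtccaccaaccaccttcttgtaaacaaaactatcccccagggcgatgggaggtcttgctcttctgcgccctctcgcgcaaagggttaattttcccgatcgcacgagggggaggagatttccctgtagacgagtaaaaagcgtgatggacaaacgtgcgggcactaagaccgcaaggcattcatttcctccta
Elovl5: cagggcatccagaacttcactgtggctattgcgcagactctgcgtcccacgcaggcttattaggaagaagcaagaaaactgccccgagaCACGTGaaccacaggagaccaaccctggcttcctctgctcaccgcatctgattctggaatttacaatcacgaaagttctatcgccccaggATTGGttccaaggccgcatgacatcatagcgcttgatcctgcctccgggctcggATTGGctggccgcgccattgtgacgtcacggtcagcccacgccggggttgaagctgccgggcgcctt

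The Fasn window held CCAAT boxes beginning 90, 62 and 59 bases before the start site, the last pair overlapping in 1 run. The Elovl5 window held the E-box 161 bases before its start and CCAAT boxes at 71 and 17 bases. No searched motif was present in the Acaca and Elovl6 windows, which says only that these letters are not in these windows. RefSeq windows were found for 9 of the 10 members, with 2 for Me1. CCAAT stood in 7 of those 10 windows and in 37.4% of all 32851 windows, CACGTG in 1 (Elovl5) and in 7.15%, GGGCGG in 3 (Acss2, Acly and 1 window of Me1) and in 35.7%, and TCACNCCAC in 0 and in 1.24%.

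The libraries differed in depth and in RNA quality before any gene was compared. Retained barcodes held 291338 UMIs in mouse 7 (550 of 3600 barcodes) and 4234127 to 11220147 UMIs in the other 8 livers. Mice 2 and 8, both AAVrh.10Null, had only 7 and 20 barcodes ending in an undetermined base, mouse 7 had 174, and the other 6 mice had 1056 to 1735. The mitochondrial share of UMIs was 17.8% in mouse 6 and 17.3% in mouse 8 against 3.43% to 10.2% in the other 7. Malat1, a nuclear RNA, ranged from 2769 CPM (mouse 4) to 23010 CPM (mouse 2). No pair of libraries shared more than 6 barcodes. The mCherry transcript reached 7979, 6150 and 1797 CPM in mice 3, 6 and 9, and at most 24.3 CPM in any other liver. Hepatocyte markers (7 of 7 in the files) summed to 76171 to 102530 CPM. The adipocyte list (3 of its 5 genes, with Adipoq and Lep not analysed here) reached at most 0.353 CPM.

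Among the enzymes that supply acetyl-CoA and NADPH, the groups overlapped throughout. Acly, which cleaves citrate to cytosolic acetyl-CoA, was at 98.7, 126 and 78.9 CPM in PBS mice 1, 4 and 7, at 93.5, 78.6 and 104 in AAVrh.10Null mice 2, 5 and 8, and at 66.9, 83.7 and 79.4 in AAVrh.10mCherry mice 3, 6 and 9. Its span from lowest to highest liver, 1.89-fold, was the narrowest of the 10. Acss2, which makes acetyl-CoA from acetate, stood at 133, 134 and 75.5 CPM in the PBS mice, 75.7, 78.4 and 133 in the AAVrh.10Null mice and 73.3, 56.4 and 91.4 in the AAVrh.10mCherry mice. Mice 1, 4 and 8 formed a high set for Acss2 that cut across the groups. Me1, the cytosolic malic enzyme that yields NADPH, was at 151, 85.3 and 103 CPM in the PBS mice, 57.3, 85.3 and 87.7 in the AAVrh.10Null mice and 98.0, 78.9 and 130 in the AAVrh.10mCherry mice. Its highest liver was mouse 1 and its lowest mouse 2, a 2.63-fold span, and each group held values inside the range of another.

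The carboxylases went separate ways. Acaca, the cytosolic acetyl-CoA carboxylase that commits carbon to synthesis, was at 13.8, 15.2 and 13.7 CPM in the PBS mice, 35.8, 15.4 and 26.9 in the AAVrh.10Null mice and 18.0, 37.6 and 26.2 in the AAVrh.10mCherry mice. All 3 PBS livers lay below all 6 vector livers, but mouse 5 at 15.4 CPM (95% Poisson interval 11.8 to 19.6, counting error only) barely cleared mouse 4 at 15.2 (12.1 to 18.9), and mouse 7 rested on 4 UMIs (3.74 to 35.2). Of all 11321 genes tested, 12.3% were higher without overlap in AAVrh.10Null than in PBS, and 14.4% in AAVrh.10mCherry than in PBS. The share with both at once was not counted. Acacb, the carboxylase of the outer mitochondrial membrane whose malonyl-CoA restrains fatty acid import, was at 11.9, 21.9 and 30.9 CPM in the PBS mice, 18.5, 10.2 and 16.8 in the AAVrh.10Null mice and 15.0, 3.36 and 11.3 in the AAVrh.10mCherry mice. Mouse 6, the highest liver for Acaca, was the lowest for Acacb, and the 9.18-fold Acacb span was exceeded among the members by Scd1 alone. Both ends of that span rest on few counts, 17 UMIs in mouse 6 (95% Poisson interval 1.96 to 5.39 CPM) and 9 in mouse 7 (14.1 to 58.6).

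Fasn, the multi-domain synthase that makes palmitate, was at 93.1, 82.3 and 54.9 CPM in the PBS mice, 120, 82.0 and 124 in the AAVrh.10Null mice and 75.0, 178 and 88.3 in the AAVrh.10mCherry mice. Mouse 6 stood alone at the top, mice 8 and 2 followed, and the other 6 livers lay below 100 CPM in all 3 groups. Thrsp, a small protein that promotes lipogenesis in response to thyroid hormone and carbohydrate, was at 938, 296 and 357 CPM in the PBS mice, 428, 307 and 371 in the AAVrh.10Null mice and 348, 378 and 185 in the AAVrh.10mCherry mice. Mouse 1 held more than any other liver and set the PBS mean of 530 ± 354 CPM (SD, n = 3), while mice 4 and 7 lay within the span of the vector groups.

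Elovl6, the elongase that takes palmitate to stearate, was at 51.3, 39.2 and 44.6 CPM in the PBS mice, 95.3, 59.0 and 67.6 in the AAVrh.10Null mice and 45.5, 78.0 and 50.4 in the AAVrh.10mCherry mice. AAVrh.10Null and PBS did not overlap, and mouse 6 was the 1 AAVrh.10mCherry liver above the PBS range. Elovl5, which elongates polyunsaturated fatty acids and some monounsaturated ones, went the other way, at 177, 180 and 216 CPM in the PBS mice, 101, 77.5 and 126 in the AAVrh.10Null mice and 133, 47.9 and 133 in the AAVrh.10mCherry mice. The 3 PBS livers were above all 6 vector livers for Elovl5. Of all 11321 genes tested, 6.87% were lower without overlap in AAVrh.10Null than in PBS, and 2.37% in AAVrh.10mCherry than in PBS. Genes with both at once were not counted. Scd1, the desaturase that makes oleate from stearate and the most counted of the 10 transcripts, was at 2049, 1674 and 1191 CPM in the PBS mice, 1215, 1101 and 1163 in the AAVrh.10Null mice and 1451, 196 and 1117 in the AAVrh.10mCherry mice. Mouse 6 at 196 CPM (184 to 209) stood 10.4-fold below mouse 1, and the other 8 livers lay between 1101 and 2049 CPM.

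**Figure D1:**
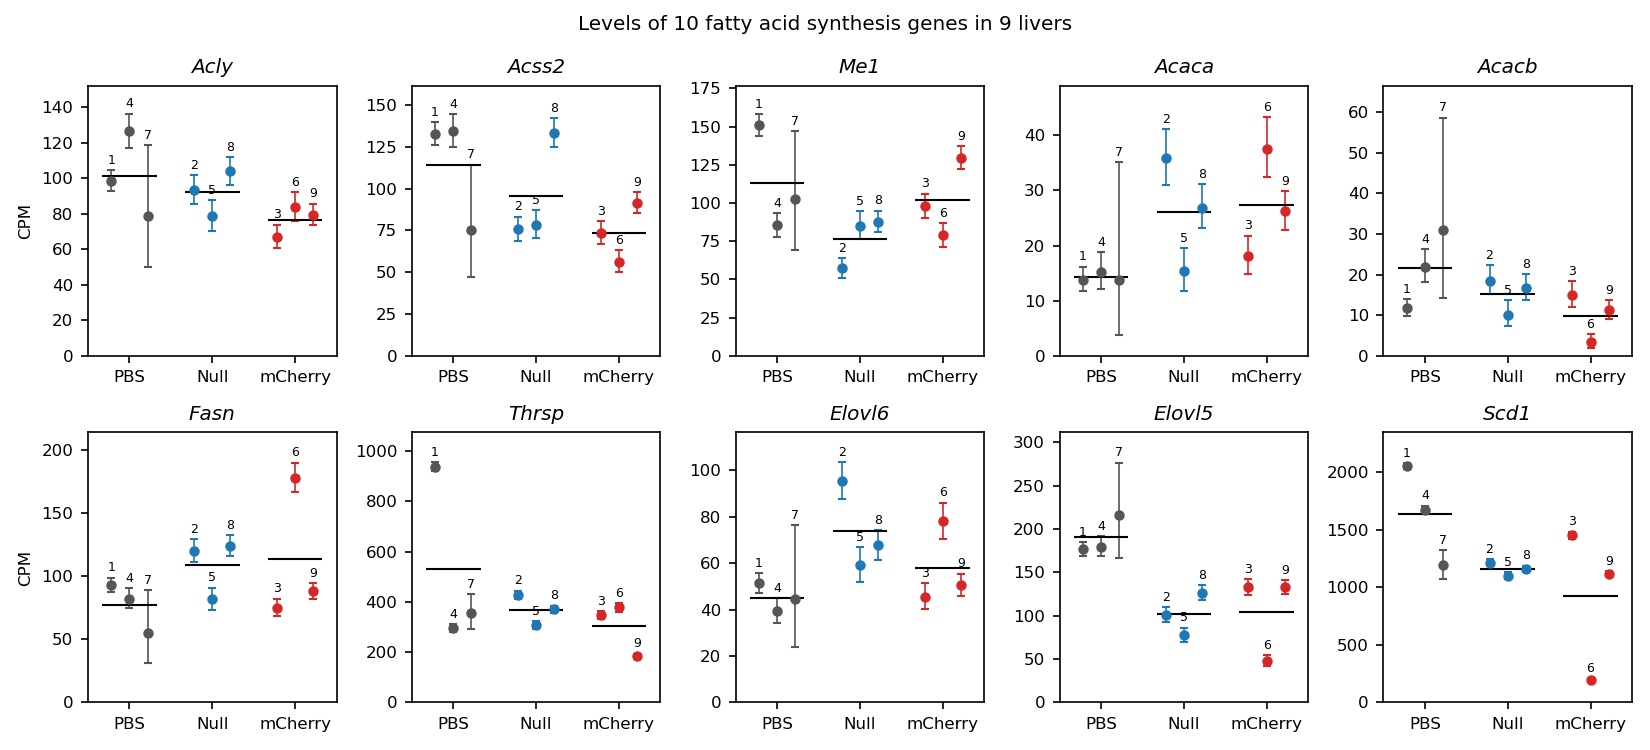
Level of each gene (y axis, CPM, from 0) in the 9 livers by group (x axis); points are livers numbered by mouse, whiskers exact 95% Poisson intervals and horizontal bars group means. Scd1 in mouse 6 lies at 196 CPM, Thrsp in mouse 1 at 938 CPM, and the wide whiskers of mouse 7 follow its 291338 UMIs.

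No member passed the test between any pair of groups. With edgeR's quasi-likelihood test on all 9 livers, 11321 genes tested and a Benjamini-Hochberg adjusted p threshold of 0.05, AAVrh.10Null against PBS called 0 of 10 members and 0.00883% of all genes (1 gene). AAVrh.10mCherry against PBS called 0 of 10 members and 0% of all genes, and AAVrh.10mCherry against AAVrh.10Null 0 of 10 and 0.0265% (3 genes). DESeq2 also called 0 members in each. The lowest adjusted p of a member was 0.31, 0.717 and 0.697 in these 3 comparisons in turn. The first pair of comparisons share the PBS mice, so their values stand side by side and are not independent of each other. In sums over a liver, fewer cells of a type and less RNA per cell cannot be told apart. The mCherry transcript itself did not pass in the same fits. Its log2 changes in the AAVrh.10mCherry livers were 8.73 ± 1.78 (SE) against PBS and 9.41 ± 1.81 against AAVrh.10Null. The edgeR adjusted p values were 0.717 and 0.522 in turn. So 0 calls among the members do not show that their levels were alike between groups.

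AAVrh.10Null minus PBS gave log2 changes of 0.81 ± 0.32 (SE) for Acaca, 0.67 ± 0.26 for Elovl6 and -0.91 ± 0.36 for Elovl5, with edgeR adjusted p of 0.321, 0.31 and 0.321. These 3 were also the members with an unadjusted p under 0.05, a level reached by 12.9% of all genes. Acaca and Elovl6 were higher without overlap, as were 12.3% of all genes, and Elovl5 was lower without overlap, as were 6.87%. Of the 10 members 7 had values below 0, as did 51.2% of all genes, with a median of -0.30 against -0.01 over all genes. Without mice 2 and 8 the Acaca value was 0.11, with mouse 5 as the lone AAVrh.10Null liver, and Elovl5 stood at -1.23. The part of the library difference of mice 2 and 8 in these values was not tested further.

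AAVrh.10mCherry minus PBS gave log2 changes of -0.97 ± 0.36 for Elovl5, -0.96 ± 0.42 for Thrsp, -0.81 ± 0.32 for Acss2, -0.58 ± 0.23 for Acly and 0.76 ± 0.32 for Acaca, with an edgeR adjusted p of 0.717 for each of them. All 5 had an unadjusted p under 0.05, against 6.57% of all genes. Elovl5 was lower without overlap (2.37% of all genes) and Acaca higher without overlap (14.4%). Of the members 7 lay below 0 (48.2% of all genes), with a median of -0.70 against 0.02 over all genes, and without mouse 1 that median was -0.38. Thrsp rested largely on mouse 1, at -0.18 without it, and without mouse 6 Elovl5 stood at -0.61 and Acaca at 0.50. Fasn at 0.36 ± 0.33 and Elovl6 at 0.21 ± 0.26 turned to -0.09 and -0.03 without mouse 6. AAVrh.10mCherry minus AAVrh.10Null gave values below 0 for 9 of 10 members and 50% of all genes, from -0.70 ± 0.44 (Acacb) to -0.05 ± 0.29 (Acaca), Me1 being the exception at 0.29 ± 0.30. The median was -0.38 against 0.00 over all genes, no member had an unadjusted p under 0.05 (7.3% of all genes did), and Scd1 at -0.42 ± 0.52 became 0.07 without mouse 6.

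**Figure D2:**
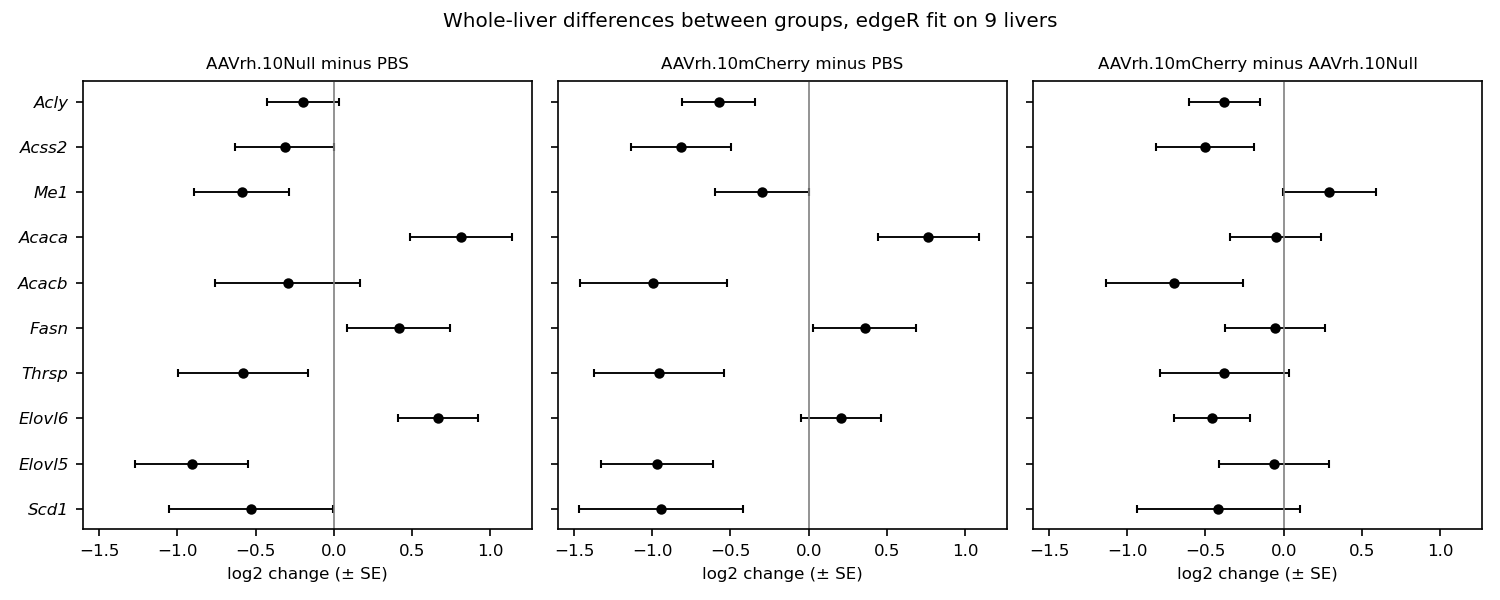
Log2 change (x axis, points) with its standard error (whiskers) for each gene (y axis) in the 3 whole-liver comparisons, from 1 edgeR fit on 9 livers. Acaca lies at 0.81 and 0.76 and Elovl5 at -0.91 and -0.97 against PBS, and no gene passed an adjusted p of 0.05.

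Genes that feed or surround the route also gave 0 calls in the whole-liver comparisons. Of the 10 regulators tested, Mlxipl (ChREBP) had the smallest p in AAVrh.10Null minus PBS, at a log2 change of 1.35 ± 0.29 and an edgeR adjusted p of 0.154. It was at 415, 360 and 506 CPM in mice 2, 5 and 8 and at 114 to 269 CPM in the other 6 livers, so the AAVrh.10Null livers stood apart from both other groups. Srebf1 was at 43.5 CPM (mouse 3) to 112 CPM (mouse 6), with groups that overlapped and a log2 change of 0.18 ± 0.36 in the same comparison. The supply genes for carbon and NADPH had medians of -0.31 in AAVrh.10Null minus PBS and -0.33 in AAVrh.10mCherry minus PBS, with 11 and 7 of 13 tested genes below 0. Transketolase (Tkt, -0.55 ± 0.22, adjusted p 0.32) and the pentose phosphate enzyme Pgd (-0.72 ± 0.23, adjusted p 0.717) had the smallest p of that list in the first and the second of these. Other elongation and desaturation genes had 8 of 9 values below 0 in each of them, with medians of -0.36 and -0.39. For triglyceride assembly and storage the medians were -0.10 and -0.15 (13 tested), for the partners of the members 0.02 and 0.06 (5 tested), for fatty acid oxidation -0.16 and 0.08 (14 tested), and for fasting and insulin genes 0.32 and 0.03 (8 tested). Clock genes had medians of 1.11 and 0.96, with 8 of 10 tested above 0 in each.

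Acaca, Fasn and Elovl6 shared the same 3 highest livers. These were mice 2, 6 and 8, in a different order for each gene and with other ranks below them, a pattern noticed in these values and shown by 3.83% of all genes tested (434 of 11321). Of the 10 clock genes, 6 had it too: Dbp, Per2, Per3, Nr1d2, Ciart and Tef. Dbp, a clock output factor that swings widely over the day, was at 69.3, 75.2 and 50.7 CPM in mice 2, 6 and 8 and at 0 to 15.8 CPM in the other 6 livers. Tef was at 70.0, 93.0 and 76.4 CPM against 3.43 to 36.9, and Per3 at 18.0, 25.7 and 24.2 CPM against 0 to 4.37. Arntl, a core clock activator that peaks when Dbp is low, was at 2.47, 3.36 and 5.94 CPM in these 3 mice against 6.86 to 14.4 in the others. The 6.86 CPM of Arntl and the 0 CPM of Dbp are of mouse 7, with 291338 UMIs over all genes. The gap in Arntl between mice 7 and 8 thus rests on few counts. Mice 2 and 8 are AAVrh.10Null and mouse 6 is AAVrh.10mCherry, and no PBS liver was among the 3.

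Lpin1 and Dgat1, which act in triglyceride assembly, and Ppargc1a were the other genes of the 8 lists with these 3 livers highest, and none of the regulators had it. Nuclear RNA moved partly with it: Malat1, Neat1 and Meg3 summed to 23236, 10578 and 15312 CPM in mice 2, 6 and 8. They summed to 2837 to 6418 CPM in 5 of the others, but to 16150 in mouse 7. Acaca and Fasn were at their lowest in mouse 7, on 4 and 16 UMIs, as were 39.1% of all genes tested. Haemoglobin and other erythroid genes (5 of 5 in the files) were at 2471, 1238 and 59.9 CPM in mice 2, 6 and 8 against 164 to 754 in the rest, and so did not share the pattern. Endothelial markers (10 of 10 in the files) summed to 242, 432 and 118 CPM there and to 72.0 to 422 elsewhere. The part of nuclear RNA, mitochondrial RNA and library handling in this pattern was not tested.

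Mouse 6 held the opposite extreme for other members. It was the lowest liver for Scd1, Elovl5, Acss2 and Acacb, whereas 8.45% of all genes tested had their lowest level there. Elovl3, an elongase outside the group that also cycles with the clock, was at 3.96 CPM in mouse 6 and at 186 to 532 CPM in the other 8 livers. Insig2, which restrains SREBP processing, was likewise lowest there, at 139.5 CPM against 181 to 392. So in 1 liver the synthase and the committing carboxylase were at their highest while the desaturase and the mitochondrial carboxylase were at their lowest. Scd1 made up 17.3% of the member UMIs of mouse 6, and its median share over the 9 livers was 55.1%. Fasn made up 15.6% of them there, against a median of 4.33%.

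**Figure D3:**
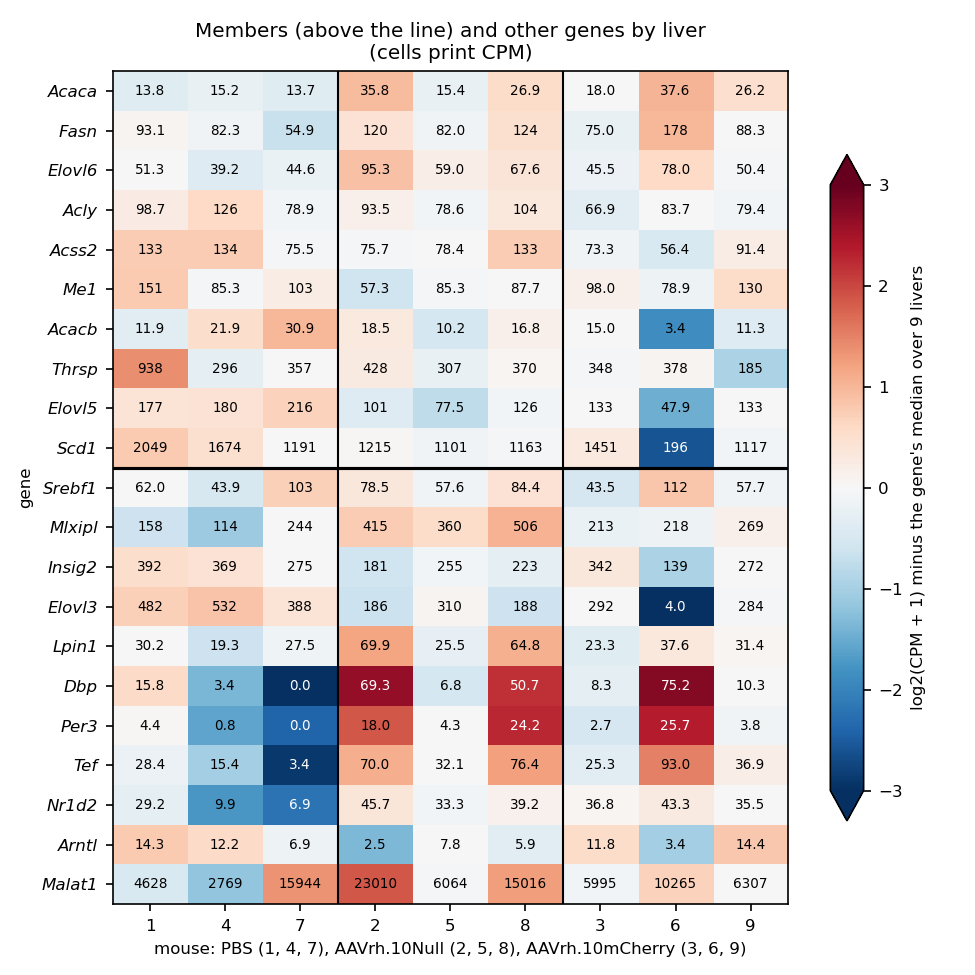
Each cell prints the CPM of a gene (y axis, members above the line) in a liver (x axis, mice by group), coloured by log2(CPM + 1) minus the gene's median over 9 livers, with colours capped at 3. Acaca, Fasn, Elovl6, Dbp, Per3, Tef and Nr1d2 are highest in mice 2, 6 and 8, and Scd1, Elovl5 and Elovl3 are lowest in mouse 6.

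The sum of the 10 members mostly followed Scd1 and Thrsp. It was 3717, 2655 and 2166 CPM in PBS mice 1, 4 and 7, 2240, 1894 and 2220 CPM in the AAVrh.10Null mice and 2324, 1138 and 1911 CPM in the AAVrh.10mCherry mice. The group means were 2846 ± 793, 2118 ± 194 and 1791 ± 602 CPM (SD, n = 3), and the groups overlapped. Without Scd1 the means were 1208 ± 398, 958 ± 144 and 870 ± 73.7 CPM. Among genes tested outside the group, the tyrosine-degrading enzyme Fah had the level most like this sum over 9 livers (Pearson r = 0.95 on log2(CPM + 1)), followed by Qprt, Serpina1d, Cideb and Mif4gd (0.92 to 0.90). Pogk, Cep350 and Hnrnpu lay at the other end (-0.96 to -0.94). These are descriptions over 9 libraries that share depth and RNA quality differences.

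Thrsp, Acss2, Fasn, Scd1 and Me1 were lower in barcodes with non-parenchymal markers. Barcodes with at least 3 UMIs and 1% of UMIs from 6 non-parenchymal marker lists numbered 15 to 136 per liver and were compared, within livers, with 468 to 6549 barcodes that held Alb and none of those markers. With the mouse as a block, 5 of the 7 members tested fell in the non-parenchymal-marker barcodes, while 33.9% of the 2309 genes tested fell and 66% changed in either direction. The log2 changes were -1.24 ± 0.16 for Thrsp, -1.13 ± 0.29 for Acss2, -1.01 ± 0.26 for Fasn, -0.88 ± 0.11 for Scd1 and -0.80 ± 0.27 for Me1, with edgeR adjusted p of at most 0.0075. Acly at -0.32 ± 0.25 and Elovl5 at -0.29 ± 0.21 did not pass, Acly being higher in the non-parenchymal-marker barcodes of 5 of 9 livers and Elovl5 in 3 of 9, and Acaca, Acacb and Elovl6 were too sparse to be tested. The Me1 call was lost without TMM scaling (-0.44, edgeR adjusted p 0.145), without mouse 6 (-0.58, 0.0606) and with a 2% minimum (-0.90, 0.166). Scd1 ranged from 114 to 1222 CPM in the non-parenchymal-marker sums and from 203 to 2059 CPM in the hepatocyte-marker sums, lower in 9 of 9 livers. Alb, a hepatocyte product, was at 14825 to 24442 CPM in the non-parenchymal-marker sums and fell by 1.21 on the log2 scale, and the part of free or doublet RNA in the members' values was not tested. Without mouse 7 the filter kept more genes, and 3402 of the 8327 tested passed in either direction. There 9 members fell, with a median of -1.52 in place of -0.88.

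Along the axis from portal to central vein, 3 members fell towards the pericentral end. Hepatocyte-marker barcodes were ranked within each liver by the pericentral share of their zonation-marker UMIs, and the upper and lower 33.3% were compared with the mouse as a block. These are ranges of a score, not cell types, and 28 to 2242 barcodes per liver lay within 5 percentage points of a boundary. Acly changed by -0.36 ± 0.07 (edgeR adjusted p 3.09e-04), Fasn by -0.41 ± 0.07 (1.12e-05) and Acaca by -0.50 ± 0.13 (0.0113), each lower in 9 of 9 livers, though Acaca in mouse 1 by little (13.9 against 14.3 CPM). In mouse 7 Acly and Acaca each rested on 0 UMIs in the pericentral range and 3 in the periportal range. Of all 7135 genes tested 3.97% passed and 2.7% fell. Fasn, for example, was at 137 CPM in the pericentral range and 240 CPM in the periportal range of mouse 6, at 114 and 180 in mouse 8, and at 76.1 and 81.4 in mouse 3. Mouse 7 aside, where 1 and 6 UMIs were counted, the Fasn differences were widest in mice 6 and 8 and narrowest in mouse 3. With mouse 7 again left aside, the Acaca ratio was widest in mouse 5, at 9.92 against 22.4 CPM (11 and 31 UMIs). The Acaca gap in CPM was widest in mouse 6, at 29.0 against 53.9.

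The other 7 members did not pass with ranges of 33.3%. Me1 was higher at the pericentral end in 9 of 9 livers with a log2 change of 0.16 ± 0.07 (adjusted p 0.216), Scd1 in 8 of 9 with 0.08 ± 0.05 (0.498), Elovl6 in 6 of 9 with 0.17 ± 0.08 (0.345) and Acss2 in 7 of 9 with 0.12 ± 0.07 (0.436). The Me1 counts of mouse 7 were 5 UMIs in the pericentral range and 2 in the periportal range. Acacb stood at -0.42 ± 0.17 (0.191) and passed with ranges of 25% (-0.60, edgeR adjusted p 0.049), and Thrsp and Elovl5 at -0.03 ± 0.05 and 0.03 ± 0.06. Among the related lists, Srebf1 (-0.38 ± 0.08, adjusted p 0.00123), Lpin1 (-0.43 ± 0.11, 0.00892) and the gluconeogenic genes Pck1 (-0.26 ± 0.05) and G6pc (-0.24 ± 0.06) fell as well, while Elovl3 (0.24 ± 0.06) and the fatty acid hydroxylase Cyp4a10 (0.22 ± 0.06) rose. None of the 13 tested supply genes and none of the 5 tested clock genes passed.

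Other RNA moved along the same axis. Alb changed by -0.31 ± 0.07 (edgeR adjusted p 0.00326), Neat1 by -0.30 ± 0.08 (0.00975), mt-Co1 by -0.33 ± 0.06 and Malat1 by -0.27 ± 0.09 (0.0693, not passing). Barcodes were then limited to those at or below their liver's median share of nuclear and mitochondrial RNA, a setting chosen after seeing the data. With it Acly still passed at -0.43, whereas Fasn stood at -0.12 and Acaca at -0.21 and did not pass. In all, 74 of 5228 genes tested passed under that limit. Acly passed under 14 of 15 alternatives (adjusted p 1.69e-06 to 1), Fasn under 13 (2.54e-07 to 1) and Acaca under 12 (0.00227 to 1). These 15 alternatives include leaving out each of the 9 mice in turn, fits that share most livers with the main one. Without mouse 6 Acaca did not pass, at -0.43, and without the mouse as a block none of the 3 did.

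**Figure D4:**
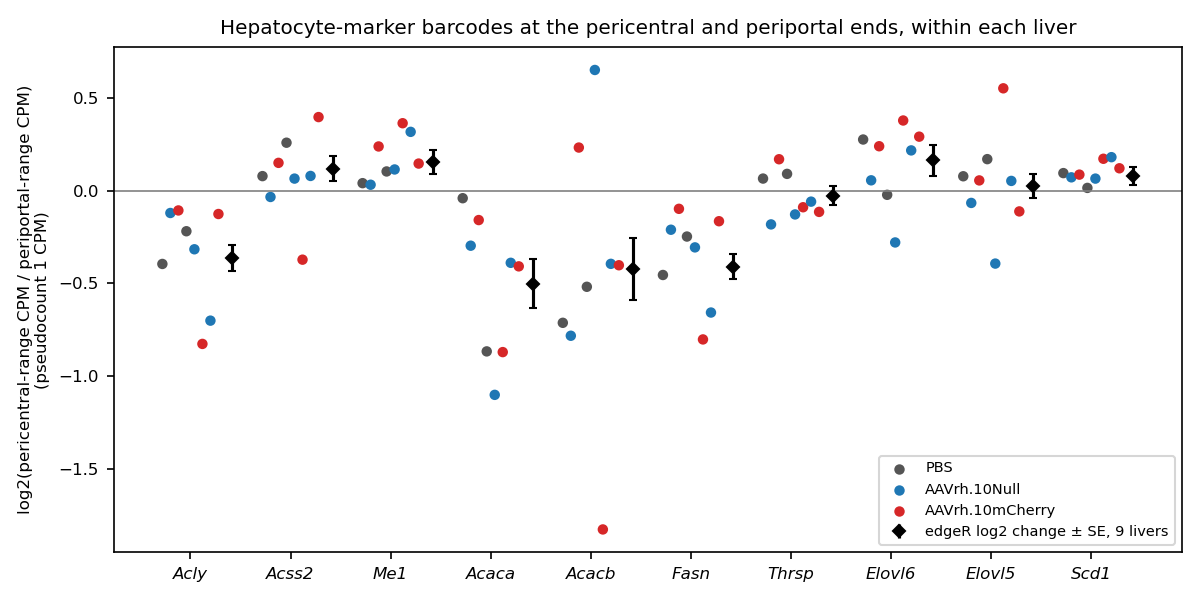
Log2 ratio of CPM in pericentral-range to periportal-range barcodes (y axis, pseudocount 1 CPM) for each gene (x axis) in 8 livers, points coloured by group, with the edgeR log2 change ± SE over 9 livers as black diamonds; mouse 7 is not drawn because of its few UMIs. All Acly, Acaca and Fasn points lie below 0 and all Me1 points above 0.

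Within the 3 AAVrh.10mCherry livers, barcodes high and low in the reporter did not differ past the test. The upper and lower 33.3% of barcodes by mCherry share of UMIs, 1013 to 1686 barcodes each, gave 0 of 10 members and 0% of 7765 genes with edgeR. At an unadjusted p under 0.05 stood 2 members and 11.1% of genes, and DESeq2 also called 0 members. Acaca was at 7.65, 24.0 and 25.8 CPM in the high range of mice 3, 6 and 9 and at 28.0, 63.9 and 25.8 CPM in the low range, so that it was lower in 2 livers and level in mouse 9. Its log2 change was -0.97 ± 0.27 (edgeR adjusted p 0.304), from -0.58 without mouse 6 to -1.63 without mouse 9. Fasn was at 52.2 to 152 CPM against 93.9 to 240 CPM, with -0.57 ± 0.17 (0.304), lower in 2 of 3. Acly was at -0.30 ± 0.17, Acss2 at -0.29 ± 0.14, Acacb at -0.20 ± 0.30, Elovl6 at -0.04 ± 0.15, and Scd1, Elovl5, Thrsp and Me1 between 0.04 and 0.17. Malat1 was at 3991, 5121 and 6468 CPM in the high range of mice 3, 6 and 9. In the low range it was at 8862, 14762 and 6063 CPM, so the high range was below the low range in mice 3 and 6 alone. Mitochondrial shares were 5.85%, 12.7% and 9.57% in the high range and 6.74%, 24.7% and 10.8% in the low range. The part of Malat1 and mitochondrial RNA in the members' values was not tested. With 25% in place of 33.3% of barcodes, or without mouse 9, Acaca and Fasn passed. The counts of all genes passing were 92 of 7036 tested and 157 of 7750 tested in turn.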

How the data were processed

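The deposited files hold a raw UMI count per gene and barcode for each of 9 livers, as whole numbers without scaling, per the file headers and values. Per the submitters' processing notes, the genome was mm10 and Seurat was used, and the deposited readme names bcl2fastq 2.19. Sequencing was on a HiSeq 2500, per the labels' protocols. Which aligner, counter and annotation made the counts is not given in the sources used here.

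Groups came from the labelled treatment. Barcodes with at least 200 genes were kept (44898 of 48000), with no mitochondrial limit, and summed per mouse. Counts of 3' tags are not divided by gene length, so levels are compared between livers and not between genes. In R 4.3.3, edgeR 4.0.16 (TMM scaling, filterByExpr, quasi-likelihood test) was fitted to all genes with group as the only term, or with the mouse as a block for pairs of sums within a liver, and p-values were adjusted by Benjamini-Hochberg over all genes tested in each comparison. DESeq2 1.42.0, other filters, scalings, barcode sets and omitted mice were alternatives. Scripts ran in Python 3.11.15 and were tested on simulated counts. Intervals on single levels are exact 95% Poisson intervals.

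Named were all 10 members, from each list of related genes those passing (at most 4) or else the gene of smallest p, the genes most and least like the summed members, and mCherry and Alb. The clock genes, Srebf1, Insig2, Elovl3 and the RNA quality genes were named after their values were seen. The members and lists were chosen with earlier results of these data known.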

Additional observations from a re-analysis of the deposited data

How the results depend on the processing

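No paired analysis was possible for the whole-liver comparisons because replicate numbers are not shared between groups. In them 0 members passed under each alternative run, and the members' median ranged over single left-out mice from -0.48 to -0.12 (AAVrh.10Null minus PBS), -0.80 to -0.38 (AAVrh.10mCherry minus PBS) and -0.47 to -0.20 (AAVrh.10mCherry minus AAVrh.10Null).

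Counts of all genes passing moved more. For AAVrh.10Null minus PBS (1 gene) they were 44 with DESeq2, 306 without the filter on low counts, 47 with at least 500 genes per barcode, 0 without mice 2 and 8 and 0 to 8 without single mice. For AAVrh.10mCherry minus PBS (0) they were 2 with DESeq2, 102 without the filter and 0 to 1 without single mice. For AAVrh.10mCherry minus AAVrh.10Null (3) they were 0 with DESeq2, with all deposited barcodes and without mice 2 and 8, 1 without TMM, with only the groups compared and without mice 6 and 7 (chosen after seeing the data), 151 without the filter and 0 to 5 without single mice.

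None of the members' values that turned sign in the whole-liver comparisons had passed the test. Without mouse 1 Thrsp became 0.22 (AAVrh.10Null minus PBS), and without mouse 4 Acly became 0.0082 there. Over single left-out mice these ranged from -0.86 to 0.22 and -0.32 to 0.0082. In AAVrh.10mCherry minus PBS the ranges were -0.49 to 0.056 (Me1), -0.088 to 0.56 (Fasn) and -0.030 to 0.39 (Elovl6), the reversals being without mouse 1 for Me1 and without mouse 6 for the others. Without mice 6 and 7 Fasn and Elovl6 became -0.24 and -0.054. In AAVrh.10mCherry minus AAVrh.10Null, Acaca, Fasn and Elovl5 became 0.058, 0.065 and 0.040 without TMM, and 0.66, 0.30 and 0.30 without mice 2 and 8. Single mice left out gave -0.32 to 0.18, -0.50 to 0.15 and -0.31 to 0.29 for them, and -0.95 to 0.068 for Scd1. At 500 genes Fasn and Elovl5 became 0.011 and 0.26, with hepatocyte-marker barcodes Fasn 0.011, and without mice 6 and 7 Elovl5 0.29 and Scd1 0.066.

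Within livers the replicate block of the mouse mattered: with no replicate block the pericentral comparison called 9 genes and 0 members in place of 283 and 3, and Thrsp became 0.00070. At low nuclear and mitochondrial RNA it called 74 of 5228 genes and 1 member, and Elovl5 became -0.0054 (-0.0075 to 0.063 without single mice). For the non-parenchymal comparison (1524 of 2309 genes, 5 members, median -0.88) the filter off gave 5772 of 25075 genes, 10 members and -1.93. The 2% minimum gave 921 of 1751 genes and 3 members. Single mice left out gave 1361 to 3402 genes, 4 to 9 members and -1.52 to -0.76. Without TMM the median of this comparison was -0.51, with Acly at 0.048 and Elovl5 at 0.083. For mCherry-high against low (0 genes, 0 members) the filter off gave 70 of 19768 genes and 1 member. Ranges of 25% of barcodes gave 92 of 7036 genes and 2 members. No TMM gave 17 of 7765 genes and low nuclear and mitochondrial RNA 2 of 6274. Single mice left out gave 1 to 157 genes and 0 to 2 members. At low nuclear and mitochondrial RNA Acacb, Scd1 and Elovl6 became 0.52, -0.058 and 0.062, and Elovl6 ranged from -0.15 to 0.062 without single mice. The settings on TMM within livers and on nuclear and mitochondrial RNA were chosen after seeing the data. The cause of these shifts was not tested.

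Depth limits mouse 7 most, where 4 UMIs of Acaca were counted.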
